A study of Homo sapiens with 3 samples.

Results

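The alkaline phosphatase family of human cells has 4 genes, ALPP, ALPG (formerly ALPPL2), ALPI and ALPL, and each was found among the 26565 genes of the deposited tables. They were chosen as a family by name, with their FPKM (fragments per unit of transcript length and of mapped total) in these libraries already known, so their levels and differences are given as a description without a test. RNA came from MTAC-P cells, a line resistant to EGFR tyrosine kinase inhibitors that was derived from PC9, a lung adenocarcinoma line with an activating EGFR deletion. In 2 libraries, labelled shBCAT1 1 and shBCAT1 2, the cells carried short hairpins against BCAT1, the cytosolic branched-chain aminotransferase, and in 1 control library a hairpin against luciferase. Cells of every library were grown in DMEM with serum. The labels do not say whether the shBCAT1 libraries differ in hairpin or in culture, so technical and biological spread between them cannot be told apart.

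Alkaline phosphatases are dimeric ectoenzymes held on the outer cell surface by a glycosylphosphatidylinositol (GPI) anchor. They use zinc and magnesium to release inorganic phosphate from many phosphate monoesters at alkaline pH. ALPP encodes the placental enzyme of the syncytiotrophoblast, and its appearance in tumours outside the placenta, lung cancer included, is long known as the Regan isoenzyme. ALPG encodes the germ cell enzyme, ALPI the enzyme of the intestinal brush border and ALPL the tissue-nonspecific enzyme of bone, liver and kidney, which breaks down pyrophosphate during mineralization and whose loss causes hypophosphatasia.

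ALPP, ALPG and ALPI lie side by side on the plus strand of chromosome 2 (hg38). The deposited tables place ALPP at 232378534 to 232382889, ALPG at 232406842 to 232410714 and ALPI at 232456112 to 232460745. ALPG begins 23.95 kb after the end of ALPP, and ALPI 45.4 kb after the end of ALPG. ALPL lies alone on chromosome 1, at 21509365 to 21578412, and had 3 transcript entries where the other members had 1 each. By GENCODE release 29 the transcripts matched to these entries have 11 exons each for ALPP, ALPG and ALPI and 12 for ALPL. Over aligned coding bases, ALPP was 97.8% identical to ALPG, 89.7% to ALPI and 64.5% to ALPL.

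The 250 bases before the RefSeq start of each chromosome 2 gene are shown because these genes are the members with any signal and because the start regions resemble one another. All 3 are on the plus strand of GRCh38.p14, ALPP at chr2:232378501-232378750, ALPG at chr2:232406594-232406843 and ALPI at chr2:232455903-232456152, from RefSeq. Capitals mark 4 motifs, searched on both strands and with no overlap among their matches: the AT-rich TTTAAA, the nuclear receptor half-site AGGTCA, the GC box core GGGCGG, and CCACACCC, which holds the core of a CACCC box.
ALPP: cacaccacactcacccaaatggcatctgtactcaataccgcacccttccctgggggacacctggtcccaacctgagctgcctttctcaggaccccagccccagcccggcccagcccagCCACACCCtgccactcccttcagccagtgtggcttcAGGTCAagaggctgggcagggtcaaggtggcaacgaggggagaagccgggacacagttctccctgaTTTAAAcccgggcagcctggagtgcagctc
ALPG: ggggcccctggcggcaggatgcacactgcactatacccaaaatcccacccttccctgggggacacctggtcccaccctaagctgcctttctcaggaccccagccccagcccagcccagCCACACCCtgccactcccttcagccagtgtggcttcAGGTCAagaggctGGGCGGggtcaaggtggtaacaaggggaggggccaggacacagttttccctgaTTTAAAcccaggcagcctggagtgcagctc
ALPI: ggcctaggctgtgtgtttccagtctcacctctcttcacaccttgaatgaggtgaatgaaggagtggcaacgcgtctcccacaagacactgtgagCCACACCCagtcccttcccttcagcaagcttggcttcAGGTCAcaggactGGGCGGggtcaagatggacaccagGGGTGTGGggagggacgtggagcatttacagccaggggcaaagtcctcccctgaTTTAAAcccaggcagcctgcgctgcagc

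The motif TTTAAA began 30 bases before the start in ALPP and ALPG and 28 bases before it in ALPI, and 11.3% of the 35116 RefSeq promoter stretches of this length hold it. AGGTCA was present once in each of the 3 genes, against 12.1% of all stretches, and CCACACCC once in ALPP and ALPG and 2 times in ALPI, against 2.97% of all. GGGCGG was found in ALPG and ALPI and had no match in the ALPP stretch, while 42.6% of all stretches hold it. Over aligned bases the ALPP stretch was 87.3% identical to that of ALPG and 67% to that of ALPI. The motifs were picked after the stretches had been read, and a match says nothing of use in these cells. The deposited ALPP entry starts 217 bases upstream of the RefSeq start, so the start used in counting is not the one shown. Most of the ALPP stretch, with all of its marked motifs, thus lies within that entry. The deposited ALPI entry starts 41 bases upstream of its RefSeq start, so the TTTAAA of ALPI lies within it. For ALPG the deposited start is 2 bases upstream.

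ALPP had the highest level of the family in each library. It was at 2.27 FPKM in the library labelled shBCAT1 1 (Cufflinks bounds 1.81 to 2.73) and at 7.39 in that labelled shBCAT1 2 (6.59 to 8.20), against 2.35 in the control (1.88 to 2.83). The library labelled shBCAT1 2 stood alone above the others, and the library labelled shBCAT1 1 overlapped the control. Relative to the control, ALPP stood at 0.963 ± 0.14 times in the library labelled shBCAT1 1 and at 3.14 ± 0.36 times in that labelled shBCAT1 2, where ± is the counting error read from the bounds and holds no spread between libraries. Libraries labelled shBCAT1 averaged 4.83 ± 3.63 FPKM (SD, n = 2), against 2.35 in the control, an SD larger than the gap between the groups. On the log2(FPKM + 1) scale the mean difference was 0.64. It was 1.32 without the library labelled shBCAT1 1 and -0.04 without the library labelled shBCAT1 2, so the second library alone gave it. In bulk RNA, more cells that make a transcript and more of it per cell cannot be told apart.

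**Figure D1:**
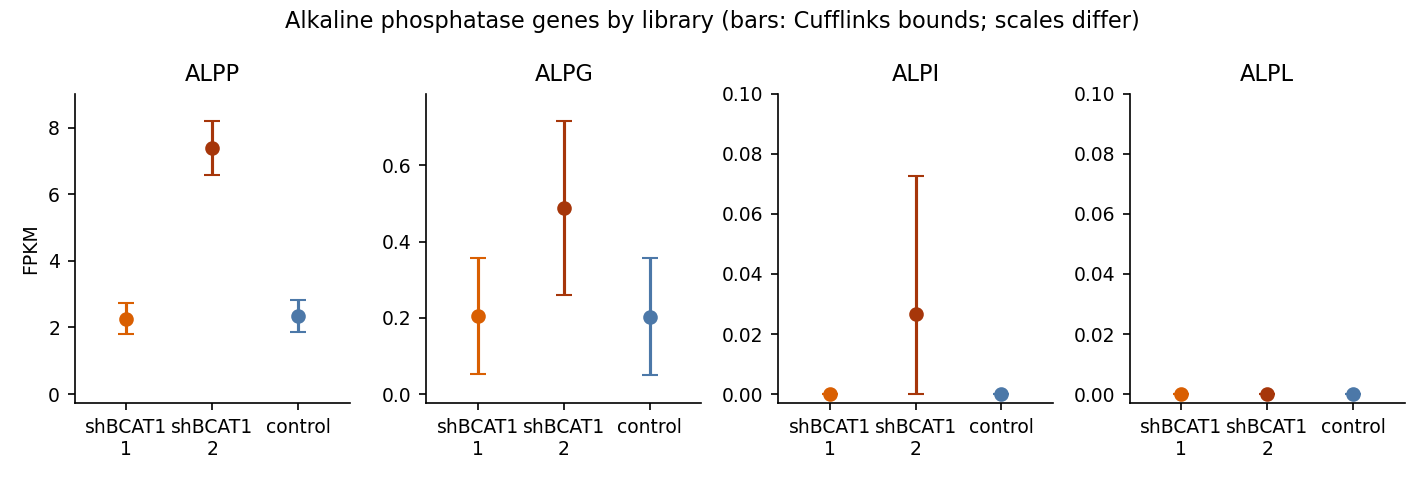
FPKM of the 4 alkaline phosphatase genes in the 2 libraries labelled shBCAT1 and the control, with a linear scale of its own for each gene; points are deposited values and bars the Cufflinks bounds. ALPP at 7.39 FPKM in the library labelled shBCAT1 2 lies above the bounds of the other libraries, and ALPL is at 0 throughout.

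ALPG, the germ cell gene, was at a far lower level and, like ALPP, had its highest value in the library labelled shBCAT1 2. It was at 0.204 FPKM in the library labelled shBCAT1 1 (bounds 0.0525 to 0.356) and 0.488 in that labelled shBCAT1 2 (0.26 to 0.716), against 0.203 in the control (0.0496 to 0.357). The bounds of all 3 libraries overlapped. In the library labelled shBCAT1 2 ALPG was 2.4 ± 1.07 times the control, and the gap was 2.07 times its counting error, where that of ALPP was 10.8 times.

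ALPI, the intestinal gene, was listed at 0 in the library labelled shBCAT1 1, at 0.0265 FPKM in that labelled shBCAT1 2 (bounds 0 to 0.0724) and at 0 in the control. ALPL, the tissue-nonspecific gene, was listed at 0 in each library on each of its 3 entries. Entries at 0 carry bounds of 0, so the bounds give no upper limit for them. Of the 4 members, ALPP alone reached the mean of 1 FPKM used for the comparison across genes, and it was above 1 FPKM in each library.

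The total of the family differed between libraries more than its makeup. The 4 genes summed to 2.47 ± 0.24 FPKM in the library labelled shBCAT1 1 and 7.91 ± 0.42 in that labelled shBCAT1 2, against 2.56 ± 0.25 in the control (± counting error). ALPP made up 91.7% and 93.5% of the sum in the libraries labelled shBCAT1 1 and shBCAT1 2, against 92.1% in the control. The level of ALPP over that of ALPG was 11.1 ± 4.3 and 15.1 ± 3.6 in the libraries labelled shBCAT1, against 11.6 ± 4.5 in the control, differences within the counting error.

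These ratios rest on genes that share sequence. The longest run identical between the ALPP and ALPG transcripts had 339 bases, and that between ALPP and ALPI had 75. Of 50-base windows, 24.5% of those of ALPP were found unaltered in ALPG and 1.3% in ALPI, and 29.3% of those of ALPG were found in ALPP. No window of 25 bases or more was shared with ALPL. Read length is not given in the sources used here, so the share of reads that could be placed on either gene is not known, and the low value of ALPG is uncertain for that reason.

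**Figure D2:**
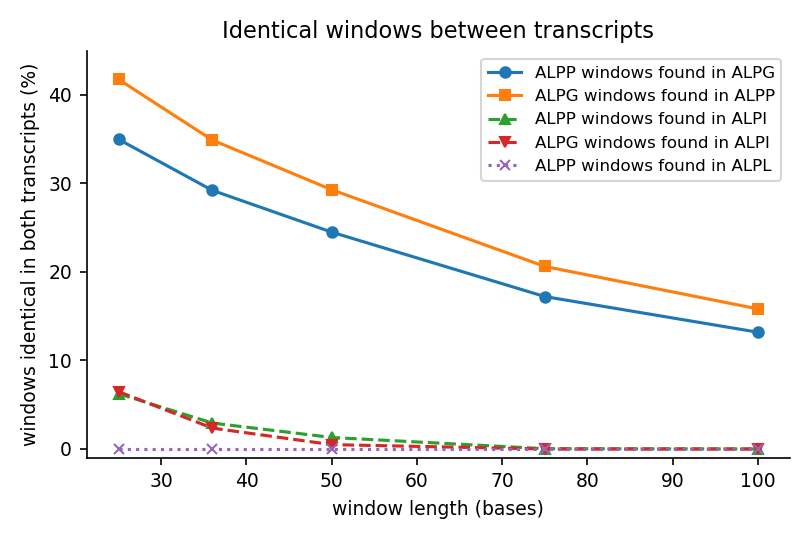
Share of windows of 25, 36, 50, 75 and 100 bases in one GENCODE transcript that occur unaltered in another, in percent, against window length. At 25 bases 41.8% of ALPG windows and at 100 bases 15.8% occur in ALPP, while ALPP shares none with ALPL.

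The width of the bounds gives the fragments that would carry the same relative error. For ALPP this was 97.25 and 335.33 fragments in the libraries labelled shBCAT1 1 and shBCAT1 2, against 98 in the control. For ALPG it was 7.25 and 18.33 fragments in these libraries, against 7 in the control, and ALPI in the library labelled shBCAT1 2 had 1.33. In that library the values of the 3 genes summed to 355, and those of ALPP and ALPG summed to 104.5 in the library labelled shBCAT1 1. These are equivalents read from the bounds, not counts of fragments placed on each gene. The part of shared fragments in these values was not tested. ALPI thus had a signal of about 1 fragment in 1 library.

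The files also hold the targeted gene. BCAT1 was at 1.05 FPKM in the library labelled shBCAT1 1 (bounds 0.835 to 1.27) and 0.241 in that labelled shBCAT1 2 (0.158 to 0.325), against 0.213 in the control (0.129 to 0.297). The library labelled shBCAT1 1 goes against its label and the other overlaps the control, so every direction here is between libraries as labelled. BCAT1 and ALPP thus stood highest in different libraries of the same label.

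Among the 3889 genes whose mean reached 1 FPKM, the bounds of 286 lay above those of the control in the library labelled shBCAT1 2, a share of 7.35%, and of 64 in the library labelled shBCAT1 1, a share of 1.65%. ALPP was among the first and not the second. Bounds lay apart from the control in the same direction in both libraries for 49 higher genes (1.26%) and 162 lower genes (4.17%), and ALPP, the single member that reached the mean of 1 FPKM, was not among them. By size, ALPP ranked 16 of 3889 from the top in the difference of the library labelled shBCAT1 2 from the control, and 4 of 3629 protein-coding genes of 300 bases or more. At least 2-fold higher on the log2(FPKM + 1) scale in that library were 23 genes (0.591%), ALPP included. In the difference of the library labelled shBCAT1 1 from the control it ranked 1451. Between the libraries that share a label, shBCAT1 2 minus shBCAT1 1, ALPP ranked 19 of 3889, at 1.36 beside a median of 0.11 over all genes tested. These ranks describe a gene chosen with its values known.

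**Figure D3:**
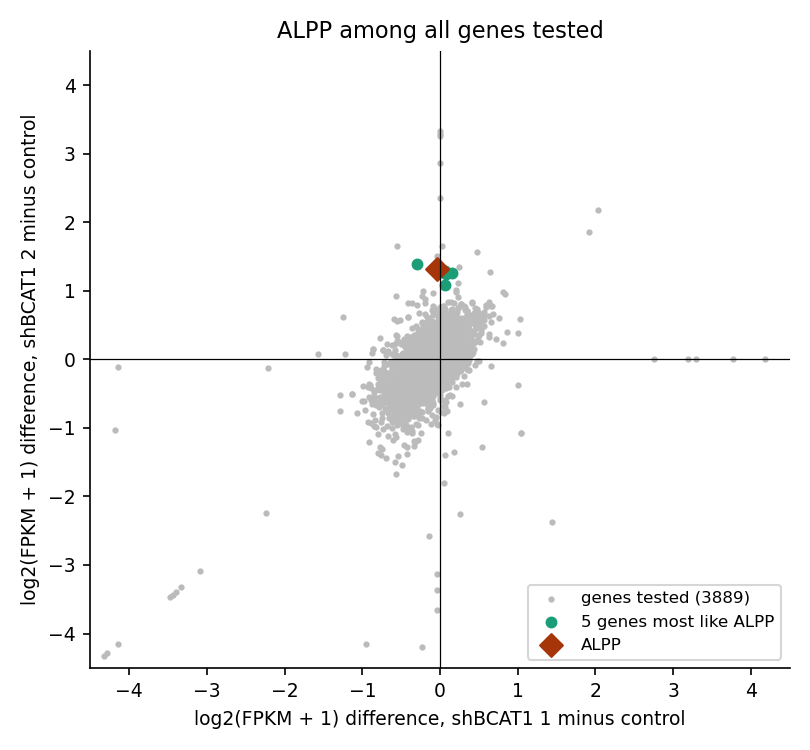
Difference from the control on the log2(FPKM + 1) scale in the library labelled shBCAT1 1 (horizontal) and shBCAT1 2 (vertical) for 3889 genes, of which 12 lie outside the axes. Both axes share the control library. ALPP, the diamond, sits at -0.04 and 1.32, beside the 5 protein-coding genes closest to it.

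The genes whose pair of differences lay closest to that of ALPP, among 3628 protein-coding genes over the 3 libraries, included ANXA8L1, ANXA8, NF2 and MSN. The root mean square distances of the closest 5 from ALPP on the log2(FPKM + 1) scale were between 0.0788 and 0.192. ANXA8L1, an annexin that binds membranes with calcium, was at 2.46 and 7.04 FPKM in the libraries labelled shBCAT1 1 and shBCAT1 2, against 2.31 in the control. ANXA8 is a near-identical copy of it, and both values are uncertain for that reason. MSN, which encodes moesin and links the actin cortex to the membrane, was at 1.11 and 5.80 FPKM in the libraries labelled shBCAT1 1 and shBCAT1 2, against 1.61 in the control. NF2, which encodes merlin, a relative of moesin, was at 2.21 and 5.88 FPKM in the libraries labelled shBCAT1, against 1.88 in the control. Each of these was high in the library labelled shBCAT1 2 alone, which is how they were chosen.

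The genes next to ALPP were mostly too low to compare. Within 500 kb of the chromosome 2 group lay 17 other genes, of which 14 were below the minimum and 2 had a status other than OK. EIF4E2, an mRNA cap-binding protein gene whose deposited start lies 172 kb from that of ALPP, was the single one measured. It was at 4.19 and 3.08 FPKM in the libraries labelled shBCAT1 1 and shBCAT1 2, against 3.69 in the control, with bounds that overlapped. ECEL1P2, between ALPP and ALPG, and ECEL1, after ALPI, were listed at 0 in each library. DIS3L2, the exonuclease gene upstream of ALPP, was at 1.1 and 1.86 FPKM in the libraries labelled shBCAT1, against 0.526 in the control, but its status was not OK and it was left out of the comparison. GENCODE places an antisense gene, AC068134.1, within ALPP on the minus strand (232379635 to 232381674). The strand of the libraries is not given in the sources used here, so reads of ALPP and of it cannot be told apart. Around ALPL, 13 genes lay within 500 kb and 3 were measured, ECE1, HSPG2 and CDC42, while ALPL itself was at 0. HSPG2, the gene of the basement membrane proteoglycan perlecan, was at 1.28 and 1.29 FPKM in the libraries labelled shBCAT1, against 0.955 in the control, with bounds above the control's in the library labelled shBCAT1 1. ECE1, an endothelin-converting enzyme gene, and CDC42, a small GTPase gene of cell polarity, had bounds that overlapped the control's in both.

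**Figure D4:**
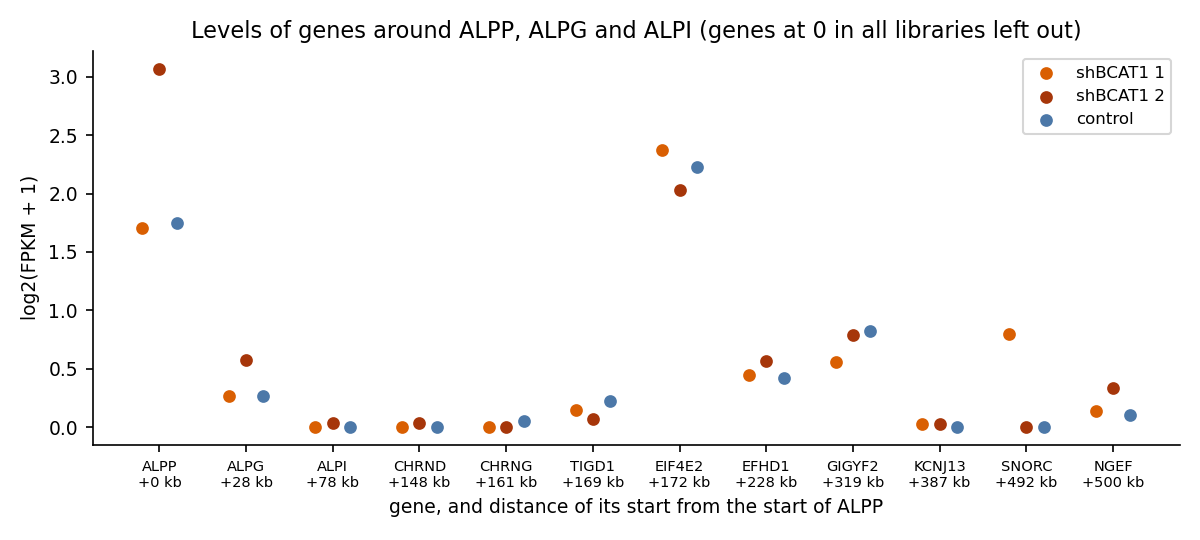
Level, as log2(FPKM + 1), of genes around ALPP, ALPG and ALPI in the 2 libraries labelled shBCAT1 and the control, in order of position, with the distance of each start from that of ALPP in kb. Genes at 0 in each library and genes with a status other than OK are left out; ALPP and EIF4E2 are the measured genes, and of these ALPP is high in the library labelled shBCAT1 2.

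Lists of genes that build the anchor, share it or act on the same substrates were set beside the family. By limma on log2(FPKM + 1), 14 of 3889 genes passed an adjusted p of 0.05 (0.36%), all lower and none in these lists. Of the 26 genes of GPI anchor synthesis and attachment, 25 were in the files and 4 were measured. Of these, 3 were lower in both libraries, beside 43.7% of all genes tested, and 0 higher in both, beside 25.6%. With 4 genes these counts cannot be set apart from the shares over all genes. The median difference was -0.14 beside -0.06 over all genes tested. GPAA1, a subunit of the transamidase that attaches the anchor, was at 3.94 and 3.80 FPKM in the libraries labelled shBCAT1 1 and shBCAT1 2, against 4.32 in the control. PIGT, another transamidase subunit, was at 2.96 and 3.77 FPKM in these libraries, against 3.25 in the control. DPM2, a subunit of dolichol-phosphate mannose synthase, was at 2.98 and 3.68 FPKM, against 3.79 in the control.

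Of 37 other genes of GPI-anchored surface proteins, 11 were measured, 3 higher and 3 lower in both libraries, beside 25.6% and 43.7% of all genes, with a median difference of -0.04. PSCA, the prostate stem cell antigen, was at 39.7 and 34.3 FPKM in the libraries labelled shBCAT1 1 and shBCAT1 2, against 48.4 in the control. LY6E, a surface protein of the same fold, was at 36.8 and 36.1 FPKM in these libraries, against 43.5 in the control, and BST2, the virus-tethering protein tetherin, at 11.9 and 11.4 FPKM, against 15.2. The smallest limma adjusted p in the list was 0.797, so no member passed. The bounds of PSCA lay below the control's in both libraries.

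Genes of the enzymes' substrates were few above the minimum. Of 18 genes that handle extracellular phosphate, pyrophosphate and nucleotides 2 were measured. SLC20A1, a sodium-phosphate cotransporter, was at 1.14 and 2.38 FPKM in the libraries labelled shBCAT1 1 and shBCAT1 2, against 1.40 in the control, and its bounds lay above the control's in the second. SLC29A1, a nucleoside transporter, was at 0.912 and 1.37 FPKM, against 0.941 in the control. Of 5 vitamin B6 genes PDXK, the pyridoxal kinase, was measured, at 1.46 and 1.90 FPKM in the libraries labelled shBCAT1, against 1.33 in the control, with bounds above the control's in the library labelled shBCAT1 2. Of 8 phosphoethanolamine genes PCYT2, an enzyme of phosphatidylethanolamine synthesis, was measured, at 0.876 and 1.48 FPKM, against 1.03 in the control. Of 7 acid phosphatases ACP1, a cytosolic phosphatase also active on tyrosine phosphate, was measured, at 1.58 and 2.37 FPKM in the libraries labelled shBCAT1, against 3.16 in the control. The smallest limma adjusted p over these 4 lists was 0.797.

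**Figure D5:**
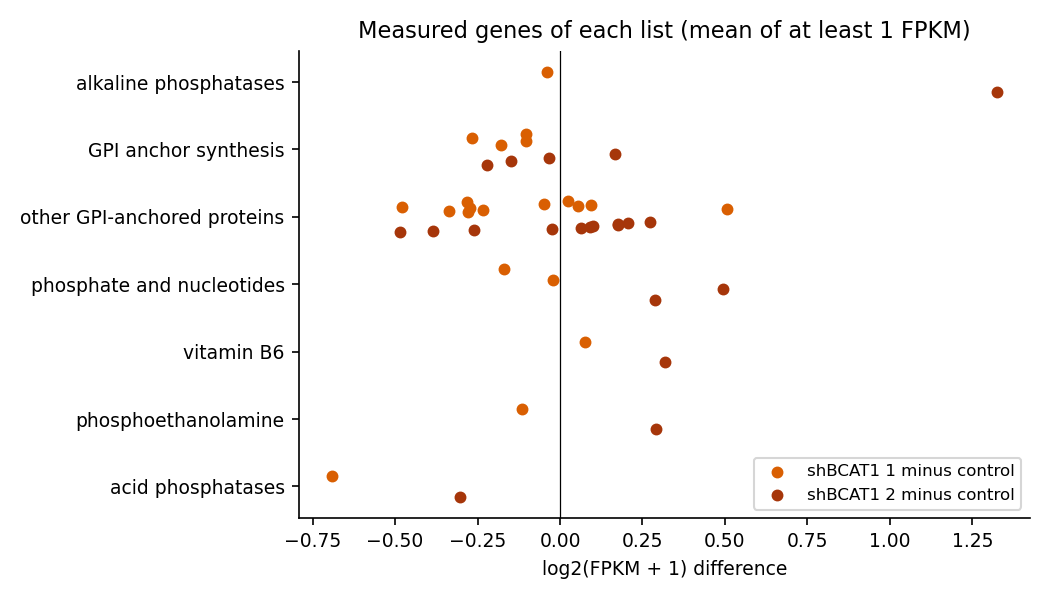
Difference from the control on the log2(FPKM + 1) scale of the measured genes of the alkaline phosphatase family (ALPP alone) and of the 6 other lists, in the library labelled shBCAT1 1 (lighter points) and shBCAT1 2 (darker points). The list points lie between -0.69 and 0.50, and ALPP lies at -0.04 and 1.32; both differences share the control library.

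Most markers of placenta, germ cells, intestine and bone were below the minimum or at 0, and no liver or kidney list was set up. Over all genes, 3889 of 26565 were measured. With status OK, 16451 had a value above 0 in any library, so many genes of any list would be low. Of 25 trophoblast genes 2 were measured, the transcription factor genes GATA2 and GATA3, and 14 were listed at 0 in each library, among them CGA, CSH1, PLAC1 and the pregnancy-specific glycoproteins PSG1, PSG3, PSG4 and PSG5. GATA2 was at 2.22 and 2.92 FPKM in the libraries labelled shBCAT1 1 and shBCAT1 2, against 2.38 in the control. GATA3 was at 0.878 and 1.34 FPKM in these libraries, against 1.04 in the control. The list summed to 4.76 and 6.34 FPKM in the libraries labelled shBCAT1 1 and shBCAT1 2, against 4.97 in the control. GATA2 and GATA3 made up most of each sum. Of 14 germ cell genes, 13 were in the files and 0 were measured, with summed levels of 0.18 and 0.214 FPKM, against 0.372 in the control. Of 17 enterocyte genes 0 were measured and 12 were at 0, among them VIL1, SI and CDX2, with sums of 0.676 and 0.513 FPKM, against 0.525 in the control. Of 12 osteoblast genes 0 were measured and 6 were at 0, SP7 and PHOSPHO1 included, with sums of 0.72 and 0.53 FPKM, against 0.425 in the control.

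The label of the cells was checked against epithelial markers. Of 10 genes 6 were measured, KRT7, KRT8, KRT18, KRT19, EPCAM and CDH1. KRT8 was at 256 and 410 FPKM in the libraries labelled shBCAT1 1 and shBCAT1 2, against 295 in the control, and KRT7 at 262 and 305 FPKM, against 320. The bounds of KRT7 lay below the control's in both libraries. Those of KRT8 and KRT18 lay below the control's in the library labelled shBCAT1 1 and above them in that labelled shBCAT1 2. Those of KRT19 lay below the control's in the library labelled shBCAT1 1 and overlapped them in the other. The lung lineage genes NKX2-1, NAPSA and SFTPB were low in each library, the highest value being 0.224 FPKM for NAPSA in the control, so the lung origin was not visible from them. CEACAM6, also below the minimum on average, was at 1.13 and 0.254 FPKM in the libraries labelled shBCAT1 1 and shBCAT1 2, against 1.16 in the control. Its bounds lay below the control's in the library labelled shBCAT1 2. Of 12 immune, endothelial and fibroblast genes CD68 alone was measured, and PTPRC, MS4A1, COL3A1, DCN and LUM were at 0. The libraries labelled shBCAT1 1 and shBCAT1 2 had 1.03 and 1.09 times the depth of the control, as the bounds show it, and total FPKM was 44312 and 46145 in them, against 53898 in the control.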

How the data were processed

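RNA-seq of 3 libraries was analysed, 2 labelled shBCAT1 and 1 control, grouped by the knockdown label and the title. The deposited values are FPKM with lower and upper bounds, given per RefSeq transcript and locus in each library, per the file headers. Trim Galore, TopHat, Cufflinks and hg38 are named in the submitters' processing notes, without versions or settings. Each table had 56882 entries. RefSeq (GRCh38.p14) named 49281 of 50337 accessions and GENCODE release 29 a further 625. FPKM was summed per gene, and 341 genes with a status other than OK were left out. The tables hold no read counts, so depth is unknown beyond what the bounds give, and 2 SDs were read from value to bound. Genes whose mean reached 1 FPKM were fitted on log2(FPKM + 1) by limma 3.58.1 (R 4.3.3), with its trend option and two-sided p-values adjusted by Benjamini-Hochberg, with 1 residual degree of freedom. This scale understates the change of low genes, and the single control is assumed to vary like the other libraries. Biopython 1.88 aligned sequences, and Python 3.11.15 with pandas 2.3.3 built the tables. Named genes were the 4 members, BCAT1 and up to 3 measured genes per list by mean FPKM. Neighbours within 500 kb and the 5 genes most like ALPP were also named. Marker genes and neighbours at 0 or below the minimum were named after their values were seen. Members and lists were chosen with earlier results of these data known. Of the 5 genes most like ALPP, 1 is not reported here. Alternatives were other pseudocounts, scalings, filters and row sums.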

Additional observations from a re-analysis of the deposited data

How the results depend on the processing

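The ALPP difference, 0.64 on the log2 scale, lay between 0.37 and 0.78 under 7 alternatives (pseudocounts of 0.1 and 5, median-of-ratios scaling, quantile normalization, primary chromosomes, highest entry, ALPP and ALPG summed). Leaving out 1 library labelled shBCAT1 gave -0.04 to 1.32 for ALPP, 0.00 to 0.31 for ALPG and 0 to 0.04 for ALPI. ALPG was at 0.15 and ALPI at 0.02, and with a pseudocount of 0.1 these became 0.48 and 0.17, since a smaller pseudocount enlarges differences of low genes. ALPL stayed at 0 under each alternative. Of 3889 genes tested, limma called 14, against 8 of 1042 at a minimum of 5 FPKM. It called 0 of 16451 without a filter on level and 0 of 4027 with transcripts kept apart. The causes were not tested. Bounds lay apart from the control in the same direction in both libraries for 211 of 3889 genes. With 1 library left out the count was 360 to 584. Leaving a library out drops a condition of the rule, so the count could only stay or rise and is no check. No paired analysis was possible because there is 1 control library, so the groups share fewer than 2 replicate numbers. ALPG and ALPI rest on few fragments, at most 18.33 and 1.33 in a library.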
